A study of Rattus norvegicus with 24 samples.

Results

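The hearts of rats pretreated with acupuncture at Yanglingquan were compared with those of rats pretreated at Quchi. Yanglingquan is an acupoint on the outer side of the leg below the knee, and Quchi one at the elbow. The comparison took 8 arrays out of 24 in the series, namely those titled YL (4 rats) and QC (4 rats), and covered all genes. Both groups had received 7 days of acupuncture, each at its own acupoint, and then a myocardial ischaemia-reperfusion injury, for which the left anterior descending artery of the heart was ligated. 2 further groups serve as a reference, sham rats and rats with the same injury and no acupuncture (the IRI group), with 4 rats each. Each of these groups held 2 males and 2 females. The Jiaji and Neiguan groups, likewise injured after acupuncture, entered the fit of the spread. The sources used here do not give strain, age, needle settings, or how long reperfusion lasted before the heart was taken. RNA came from myocardium, isolated with TRIzol and labelled with Cy3, and each array was taken as 1 rat, which no label states outright, and the p-values describe array-to-array spread within groups.

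The heart draws most of its energy from fatty acids, which are taken up by carriers such as Cd36, moved into mitochondria by the carnitine shuttle and broken down by beta oxidation. The nuclear receptor PPAR alpha, bound by fatty acids, switches many of these genes on. Strain on the wall and loss of oxygen are known to lower such genes and to raise a fetal programme that includes natriuretic peptides. The heart also holds sympathetic nerve endings and glia, and neurotrophin receptors such as TrkB (Ntrk2) pass growth factor signals into nerve and vessel cells.

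Values are log2 processed signals from which the array's own 75th percentile was taken off, so 0 marks that percentile, and levels are compared only within a probe. Differences are log2 values of Yanglingquan minus Quchi with a standard error (SE), from a limma fit over 24 arrays. A gene is referred to as called where its Benjamini-Hochberg adjusted p over all 12894 genes tested was under 0.05. Where 4 values are listed for a group they are those of replicates 1 to 4, with males first (1 and 2) and females after (3 and 4). The number of arrays sets the precision.

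The share of probes well above background, a flag set by the scanner software, was 73.5% ± 2.53 (SD, n = 4) on the Yanglingquan arrays and 81.2% ± 4.2 (SD, n = 4) on the Quchi arrays. The difference of -7.77 percentage points had an exact two-sided permutation p of 0.0571, where the smallest possible is 0.0286. Quchi 1 alone fell near the Yanglingquan arrays, with 75.6% against 81.2% to 85.6% on the other Quchi arrays and 71.2% to 76.4% on the Yanglingquan arrays. Without it the difference was -9.64 points, with an exact p of 0.0286, the smallest possible for that test too. With any other single array left out, the exact permutation p was 0.0571 or 0.0857. The 4 Yanglingquan arrays were scanned together, Quchi 2, 3 and 4 were scanned together, and Quchi 1 was scanned separately on a later day. Since each group filled its own scans, scan and acupoint cannot be told apart. The IRI and sham arrays were scanned on an earlier day than both acupoint groups, so that scan day and group cannot be told apart in any comparison with them. The 7 defining markers of heart muscle (Myh6, Tnnt2, Tnni3, Actc1, Myl2, Myl3, Mb) were all present on these arrays, with a lowest percentile of 97.3 among the genes tested. Correlations between arrays ranged from 0.976 to 0.990 within the groups and from 0.968 to 0.985 between them, and 8 of 8 arrays were closest to an array of their own group.

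Between the acupoints, 2075 of 12894 genes were called (16.1%), of which 539 (4.18%) were higher and 1536 (11.9%) were lower in Yanglingquan hearts. This split depended on the scaling. After quantile normalization 1641 genes were called (12.7%), 847 higher (6.57%) and 794 lower (6.16%). With median scaling 1275 were higher and 1143 lower. The median of all genes moved from -0.05 to 0.03 under quantile normalization and to 0.08 under median scaling. In the same direction under both the 75th percentile and the quantile scaling were 1251 genes (9.7%), 475 higher (3.68%) and 776 lower (6.02%). For 1771 genes (13.7%) the 4 Yanglingquan and 4 Quchi values did not overlap, 524 being higher (4.06%) and 1247 lower (9.67%). Leaving out Quchi 2 reduced the calls to 1113 (218 higher, 895 lower), and leaving out Quchi 1 gave 2102 (324 higher, 1778 lower).

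The lower calls gathered among faint genes. When genes were split by level into 4 equal classes, in the faintest class 917 were lower and 39 higher, with a median difference of -0.45, while in the brightest class 135 were lower and 140 higher, with a median of 0.01. After quantile normalization the faintest class had 323 lower and 230 higher, and its median was -0.02. Receptors for smell, pheromones and taste, which are faint in the heart, gave 167 lower and 8 higher of 572 tested, and 68 lower and 16 higher after quantile normalization. The share of detected probes moved with this pattern, and its part in it was not tested. Genes named further on as leading were therefore taken only where both scalings called them in the same direction, all 8 arrays were well above background and the groups did not overlap.

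**Figure D1:**
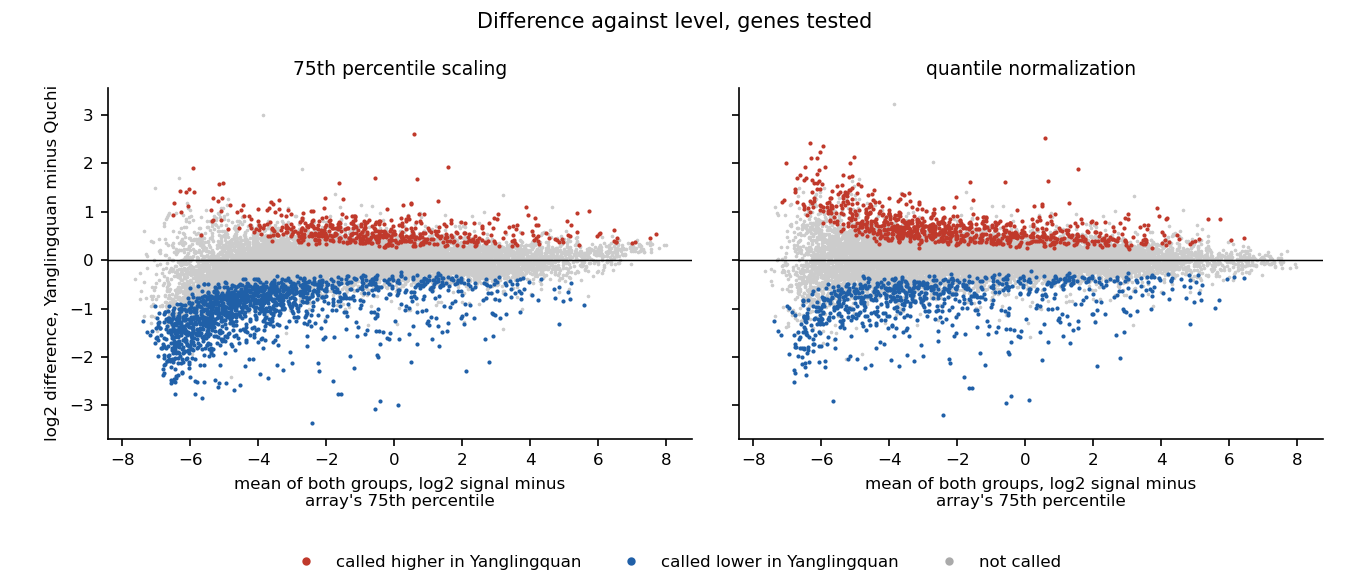
Each point is a gene, with the mean of both groups on the x axis and the log2 difference (Yanglingquan minus Quchi) on the y axis. With 75th percentile scaling (left) 1536 genes were called lower, many at the faint end, and 539 higher. After quantile normalization (right) the calls were 794 lower and 847 higher.

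The largest differences were in genes lower in Yanglingquan hearts, led by the neuronatin gene and the TrkB receptor gene. Nnat, which encodes a small membrane protein of developing neurons and hormone-secreting cells, stood at -4.62, -3.64, -4.02 and -4.13 in Yanglingquan hearts and at -2.30, -0.15, -0.71 and 0.20 in Quchi hearts. Every Yanglingquan array was lower than every Quchi array, a lack of overlap that the rule for leading genes requires of each of them. The difference was -3.36 ± 0.39 (SE; adjusted p = 1.1e-05), 10.27-fold, and a second probe of the gene gave -0.75 ± 0.36. Ntrk2, the receptor for brain-derived neurotrophic factor, stood at -1.92, -2.67, -2.33 and -1.50 (Yanglingquan) and 0.47, 1.14, 0.93 and 1.36 (Quchi). The groups were separated by more than 1 log2 unit at their nearest values, and the difference was -3.08 ± 0.20 (SE; adjusted p = 2.18e-08), or 8.46-fold. IRI hearts ranged from 0.97 to 1.28 and sham hearts from 0.47 to 0.89 for Ntrk2, so that Quchi overlapped both references and Yanglingquan lay below them. Against IRI the Yanglingquan difference was -3.19 (adjusted p = 1.62e-09) and the Quchi difference -0.11 (adjusted p = 0.821), and these comparisons share the IRI arrays.

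Wnt3, a secreted signalling protein of development, was at 1.64, 1.66, 1.97 and 1.64 on the Yanglingquan arrays and 3.099, 4.11, 3.84 and 4.30 on the Quchi arrays. No values overlapped, and the difference was -2.11 ± 0.20 (SE; adjusted p = 1.29e-06). Nkx6-2, a homeobox factor of myelinating glia, was at -0.83, -0.28, -0.67 and -0.52 in Yanglingquan hearts and at 0.51, 1.87, 1.58 and 2.19 in Quchi hearts. The 4 Yanglingquan values were all below 0 and the 4 Quchi values all above it, a difference of -2.11 ± 0.24 (SE; adjusted p = 1.09e-05). Sftpc, a surfactant protein of lung alveolar cells, was at -2.52, -3.15, -3.48 and -3.03 (Yanglingquan) and -1.26, -0.17, -0.53 and -0.21 (Quchi). Its difference was -2.50 ± 0.24 (SE; adjusted p = 1.29e-06). In Zfp609, a zinc finger gene, the difference was -2.76 ± 0.28 (SE; adjusted p = 1.81e-06), while a second probe gave -0.22 ± 0.20. Adam32, a sperm membrane protein of the disintegrin family, differed by -2.76 ± 0.34, adjusted p = 2.17e-05. It was the only one of the 15 whose Yanglingquan arrays did not all lie below the other 20 arrays of the series: its IRI hearts reached down to -3.11, and Quchi hearts lay above IRI by 2.07 (adjusted p = 0.00137).

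The remaining leading lower genes were Pla2g12b (a phospholipase-like protein of lipoprotein secretion), Tmem52b, Abcg3l3, Zfp382, Prss21 (a testis serine protease), Lrfn2 (a synaptic adhesion protein), Alkbh4 (a demethylase) and Prok1 (prokineticin, a ligand acting on endocrine gland vessels), with differences from -2.28 for Pla2g12b to -1.89 for Prok1. For Alkbh4 the difference was -1.96, and a second probe gave -0.23 ± 0.18. In 14 of the 15, the 4 Yanglingquan values lay below all 20 other arrays, beside 201 of all 1536 lower calls. In 0 of the 15 did the Quchi values lie above all others, beside 22 of the 1536. The 15 were chosen for large differences without overlap, and these counts are to be read with that choice. Quchi 1 was the lowest of the Quchi arrays, and so the nearest to Yanglingquan, in 15 of the 15, and 12 of them had the Quchi arrays in the same order from low to high: 1, 3, 2, 4. Over all 1534 lower calls with 4 Quchi values, Quchi 1 was the nearest in 822 (53.6%). On the 16 arrays of the other groups, which did not choose them, pairwise correlations of the 15 genes had a median of 0.48. They ranged from -0.80 to 0.93. No such value was computed for other genes, and these arrays differ in group and scan, so likeness cannot be read from it. All 15 calls held whichever of the 8 arrays was left out. Csnk1e, a casein kinase of the circadian clock chosen here after its values were seen, had 1 Yanglingquan spot left out as an outlier. Its other 3 Yanglingquan values were -1.49, -1.40 and -1.31, with a difference of -3.00 ± 0.26 (SE; adjusted p = 1.23e-06).

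**Figure D2:**
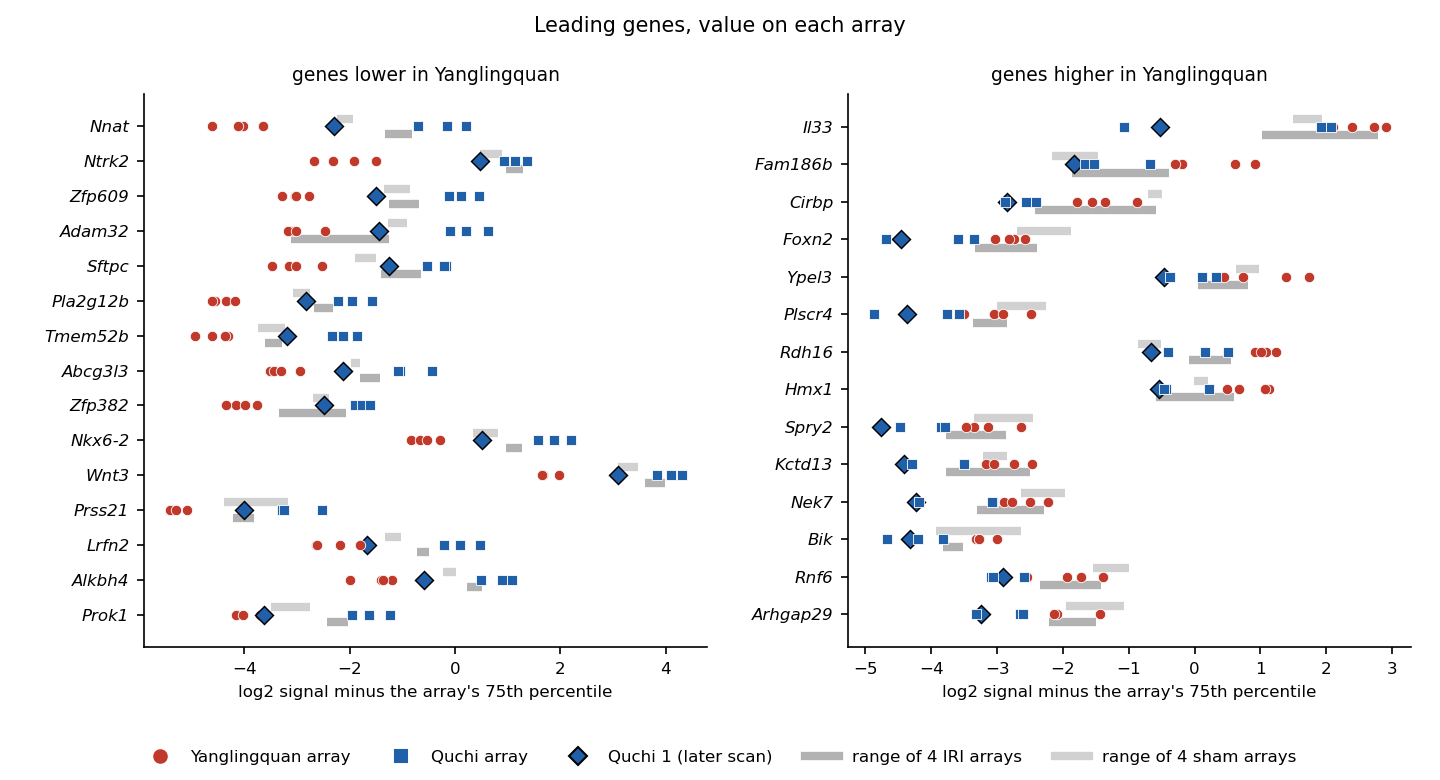
Points are single arrays on the log2 scale relative to the 75th percentile of the array, with circles for Yanglingquan, squares for Quchi and a diamond for Quchi 1, and grey bars for the range of the 4 IRI (dark) and 4 sham (light) arrays. In the lower genes (left) Yanglingquan stands below IRI and sham for all but Adam32. In the higher genes (right) the 4 Yanglingquan points lie above the 4 Quchi points, as the rule that chose the genes required.

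Among genes higher in Yanglingquan hearts, the one of largest difference within the rule was Il33, an alarm cytokine of the interleukin-1 family held in the nuclei of endothelial and stromal cells. Its values were 2.90, 2.39, 2.72 and 2.11 on the Yanglingquan arrays and -0.53, -1.07, 1.93 and 2.07 on the Quchi arrays. The Yanglingquan arrays were close together, whereas the Quchi males were low and the Quchi females near Yanglingquan. The difference was 1.93 ± 0.52 (SE; adjusted p = 0.0146), IRI hearts ranged from 1.03 to 2.78, and the call was lost without Quchi 2 (adjusted p = 0.078) and in a fit of the 8 arrays alone (adjusted p = 0.073). Cirbp, a cold-inducible RNA-binding protein, was at -1.36, -1.79, -0.87 and -1.56 in Yanglingquan hearts and at -2.85, -2.88, -2.42 and -2.55 in Quchi hearts. The difference was 1.28 ± 0.27 (SE; adjusted p = 0.00332), and Quchi hearts differed from IRI by -1.34 (adjusted p = 0.00856) and Yanglingquan hearts by -0.06 (adjusted p = 0.912).

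Ypel3, a gene linked to cellular senescence, was at 0.44, 0.74, 1.73 and 1.39 (Yanglingquan) and -0.46, -0.37, 0.33 and 0.11 (Quchi). The difference was 1.17 ± 0.21 (SE; adjusted p = 0.000923). The forkhead factor Foxn2 (1.23 ± 0.26, adjusted p = 0.00331), the scramblase family gene Plscr4 (1.16 ± 0.24, adjusted p = 0.00237) and Spry2, a feedback inhibitor of growth factor receptors (1.07 ± 0.28, adjusted p = 0.0127), were lower in Quchi hearts than on all 20 other arrays, as were Rnf6 (1.02 ± 0.24, adjusted p = 0.00683) and Arhgap29 (1.01 ± 0.26, adjusted p = 0.0117). Further leading higher genes were Kctd13 (1.07), Nek7, a kinase needed for the NLRP3 inflammasome (1.04), Bik, a pro-apoptotic BH3-only protein (1.04), the homeobox gene Hmx1 (1.15), Fam186b (1.69) and Rdh16, a retinol dehydrogenase (1.16). Second probes of Fam186b (-0.21 ± 0.34) and Rdh16 (-1.29 ± 0.39) went the other way, and over the mean of its probes Fam186b lost its call (adjusted p = 0.074) and Rdh16 was at -0.07. Without Quchi 2 the calls of Kctd13 (adjusted p = 0.052) and Arhgap29 (adjusted p = 0.0504) were lost. In 0 of the 14 leading higher genes described did Yanglingquan lie above all 20 other arrays, beside 28 of all 539 higher calls. In 5 of the 14 Quchi lay below all others, beside 24 of the 539. Pairwise correlations of the 14 genes over the 16 arrays of the other groups had a median of 0.17 and ranged from -0.54 to 0.93.

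Tbx3, a repressor that shapes the conduction system of the heart, and Uts2, which encodes the vasoconstrictor urotensin II, were chosen after their values were seen. Tbx3 was at 2.80, 2.29, 2.22 and 0.22 on the Yanglingquan arrays and -1.74, -1.40, -0.54 and 0.76 on the Quchi arrays. It had the largest difference of the called higher genes, 2.61 ± 0.70 (SE; adjusted p = 0.0147), with Yanglingquan 4 below Quchi 4. Uts2 showed a like order of arrays, at 2.20, 1.71, 1.70 and 0.48 in Yanglingquan hearts and at -0.66, -1.09, 0.16 and 0.94 in Quchi hearts. Its difference was 1.68 ± 0.45 (SE; adjusted p = 0.0145).

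Of 27 genes for the uptake and oxidation of fatty acids, 9 were called higher in Yanglingquan hearts, 0 were called lower and 18 did not pass. The counts of this and the other lists stand beside 4.18% called higher and 11.9% called lower among all genes, and the list's median difference was 0.38 against -0.05 for all genes. In 26 of 27 the difference was above 0, beside 5727 of 12894 among all genes. Ribosomal proteins leaned the same way (24 of 28), and fibroblast and matrix genes the other way (4 of 21). The base of all genes holds the faintest class, with a median of -0.45, against 0.01 in the brightest class. Of the 27 fatty acid genes, 26 were well above background on all 8 arrays, so this base is not of like brightness. The scaling hardly moved the median of the fatty acid list (0.39 after quantile normalization). Of its genes, 5 were then called higher and 0 lower, 4 of them called with both scalings. The count rested on several arrays: it was 4 without Yanglingquan 3 or without Quchi 2, 5 without Yanglingquan 4 or without Quchi 1, and 7 or 8 without any other array, with 0 lower in each case.

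Cd36, the fatty acid translocase of the cell surface, was at 5.65, 5.51, 6.13 and 6.16 (Yanglingquan) and 4.59, 4.54, 5.12 and 5.33 (Quchi). The groups did not overlap, and the difference was 0.97 ± 0.16 (SE; adjusted p = 0.000449), 1.95-fold; a second probe gave 0.82 ± 0.18. IRI hearts spanned 4.74 to 5.34 and sham hearts 5.29 to 5.45. Yanglingquan hearts were above IRI by 0.76 (adjusted p = 0.00444), and Quchi hearts differed from IRI by -0.21 (adjusted p = 0.503). Fabp4, a fatty acid binding protein of fat cells and heart capillaries, was at 3.23, 3.36, 3.51 and 3.62 on the Yanglingquan arrays and 2.37, 2.48, 2.66 and 2.84 on the Quchi arrays. No values overlapped and the difference was 0.84 ± 0.18 (SE; adjusted p = 0.00335). Cpt1b, the muscle form of the enzyme that starts the carnitine shuttle, was at 6.09, 6.38, 6.30 and 6.54 in Yanglingquan hearts and at 5.68, 5.68, 5.70 and 6.03 in Quchi hearts. Quchi 4 stood above the other Quchi arrays, and the difference was 0.55 ± 0.14 (SE; adjusted p = 0.0111), with 0.74 ± 0.24 from a second probe. Slc25a20, the carnitine-acylcarnitine carrier of the inner mitochondrial membrane, was at 1.53, 1.59, 2.30 and 1.90 (Yanglingquan) and 0.72, 0.92, 1.59 and 1.11 (Quchi). Only Quchi 3 reached into the Yanglingquan range, and the difference was 0.74 ± 0.17 (SE; adjusted p = 0.00601). Cpt1b lost its call after normexp background correction (adjusted p = 0.0523), and Cd36, Fabp4 and Slc25a20 kept theirs in all 21 alternative settings.

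The other 5 called genes of oxidation, named after their values were seen, were Cpt1a (0.72 ± 0.24), Acaa2 (0.72 ± 0.23), Hadha (0.70 ± 0.21), Crat (0.59 ± 0.17) and Hadh (0.54 ± 0.16), of which Cpt1a is also on the list of PPAR targets, and 0 of these 5 were called after quantile normalization (adjusted p from 0.0547 for Hadha to 0.0911 for Hadh). Long-chain acyl-CoA dehydrogenase Acadl did not pass, with 7.29 ± 0.15 in Yanglingquan and 6.91 ± 0.12 in Quchi hearts (SD) and adjusted p = 0.0560, although the groups did not overlap. Over 21 alternative settings its difference ranged from 0.075 to 0.51 (limma adjusted p from 0.0172 to 0.735), and it was called in 2 of them.

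Of 25 PPAR targets and genes of the fuel switch, 5 were called higher and 0 lower (4.18% and 11.9% of all genes), with a median of 0.42, and 20 did not pass. After quantile normalization 3 were higher and 0 lower, and 2 were called with both scalings. Acot1, an acyl-CoA thioesterase that PPAR alpha induces, was at -1.93, -1.85, 0.50 and -0.04 on the Yanglingquan arrays and -3.27, -3.29, -1.24 and -1.92 on the Quchi arrays. In each sex both Yanglingquan values lay above both Quchi values, although the groups overlapped, and the difference was 1.60 ± 0.38 (SE; adjusted p = 0.00723), 3.04-fold. The enoyl-CoA isomerase Ech1 (0.81 ± 0.26, adjusted p = 0.0370) and the pyruvate dehydrogenase kinase Pdk2 (0.49 ± 0.16, adjusted p = 0.0451) were called as well. Ech1 and Pdk2 lost their calls after quantile normalization (adjusted p = 0.0753 and 0.108). Ech1 also lost it without Yanglingquan 3 or 4, or Quchi 1, 2 or 4 (adjusted p from 0.0571 to 0.135), and in 11 of 21 alternatives in all. Pdk2 lost it without any 1 array other than Yanglingquan 1 (adjusted p from 0.0560 to 0.150), and in 16 of 21 alternatives in all. Without Yanglingquan 3 or without Quchi 2 the list held 1 called gene. It held 2 without Yanglingquan 4, Quchi 1 or Quchi 4.

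3 further PPAR targets set apart the Yanglingquan females without passing the test. Angptl4, a secreted inhibitor of lipoprotein lipase, was at 1.499, 2.25, 4.42 and 4.36 in Yanglingquan hearts and at 1.88, 1.92, 1.98 and 2.77 in Quchi hearts. Both Yanglingquan females stood above the other 6 arrays. Ucp3, a mitochondrial uncoupling protein, was at 0.04, 0.26, 2.28 and 2.06 (Yanglingquan) and 0.31, 0.28, 0.61 and 1.05 (Quchi). Pdk4, a kinase that restrains glucose oxidation, was at 0.21, 0.69, 2.50 and 1.59 on the Yanglingquan arrays and 0.10, -0.06, 0.84 and 0.50 on the Quchi arrays. Here too the Yanglingquan females were the highest. Their differences were 0.996, 0.60 and 0.90 for Angptl4, Ucp3 and Pdk4, with adjusted p from 0.130 to 0.439. The difference between the sexes in these contrasts was not past the threshold either (adjusted p from 0.311 for Angptl4 to 0.551 for Pdk4). The receptors and coactivators themselves, Ppara (-0.11 ± 0.15), Ppard (-0.19 ± 0.14) and Ppargc1a (-0.12 ± 0.17), did not pass.

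Catalase (Cat), the peroxisomal enzyme that breaks down hydrogen peroxide, was at 0.09, -0.45, 1.25 and 0.30 in Yanglingquan hearts and at -1.19, -1.10, 0.03 and -0.76 in Quchi hearts. Its difference was 1.05 ± 0.29 (SE; adjusted p = 0.0191), with loss of the call without Yanglingquan 3 (adjusted p = 0.082), Quchi 2 (adjusted p = 0.060) or Quchi 4 (adjusted p = 0.0502). Among the genes reported from the fatty acid and PPAR lists, with Cat added to them by choice, 6 were called under both scalings. Of these, 4 had an entry in the RefSeq promoter table. Their 250 bases before the transcription start are shown, 5′ to 3′ on the gene's strand in the GRCr8 build. They were picked since each was called higher under both scalings. Capitals mark AGGTCA, the hexamer bound by PPAR and related nuclear receptors, and GGGCGG, the GC box, on either strand.
Cat (chr3:110329527-110329776, minus strand): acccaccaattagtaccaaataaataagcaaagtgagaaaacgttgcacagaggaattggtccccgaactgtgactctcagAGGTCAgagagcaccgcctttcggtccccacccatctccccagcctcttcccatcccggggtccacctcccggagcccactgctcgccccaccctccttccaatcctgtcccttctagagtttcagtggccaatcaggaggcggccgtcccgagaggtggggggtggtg
Cd36 (chr4:18246332-18246581, plus strand): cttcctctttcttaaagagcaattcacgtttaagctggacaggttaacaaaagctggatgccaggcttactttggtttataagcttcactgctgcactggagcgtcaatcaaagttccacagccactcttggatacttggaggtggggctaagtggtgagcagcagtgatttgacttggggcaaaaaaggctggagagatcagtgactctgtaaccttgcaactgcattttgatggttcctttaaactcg
Acot1 (chr6:109367024-109367273, plus strand): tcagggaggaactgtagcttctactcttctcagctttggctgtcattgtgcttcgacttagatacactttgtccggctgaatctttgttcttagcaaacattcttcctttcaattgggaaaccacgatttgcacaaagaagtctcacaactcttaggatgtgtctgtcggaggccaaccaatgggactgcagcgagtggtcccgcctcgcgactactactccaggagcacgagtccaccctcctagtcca
Slc25a20 (chr8:118243323-118243572, plus strand): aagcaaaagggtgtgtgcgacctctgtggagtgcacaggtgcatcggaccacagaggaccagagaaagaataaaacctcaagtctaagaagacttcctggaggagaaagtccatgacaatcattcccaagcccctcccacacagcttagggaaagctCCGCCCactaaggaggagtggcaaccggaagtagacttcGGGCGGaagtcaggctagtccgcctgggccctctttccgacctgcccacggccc
Cat held 1 AGGTCA and Slc25a20 held 2 GC boxes, 1 of them on the other strand, where GGGCGG reads CCGCCC. For Cd36 and Acot1 neither set of letters was in this window. Among 33469 promoters of the table, 14.1% held AGGTCA and 30.5% held GGGCGG in the same window. CCAAT, found in 34.0% of all windows, stood 4 times in Cat and 2 times in Acot1, and TATAAA, found in 12.9%, stood 1 time in Cd36, counted on both strands. Cpt1b and Fabp4 had no entry.

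**Figure D3:**
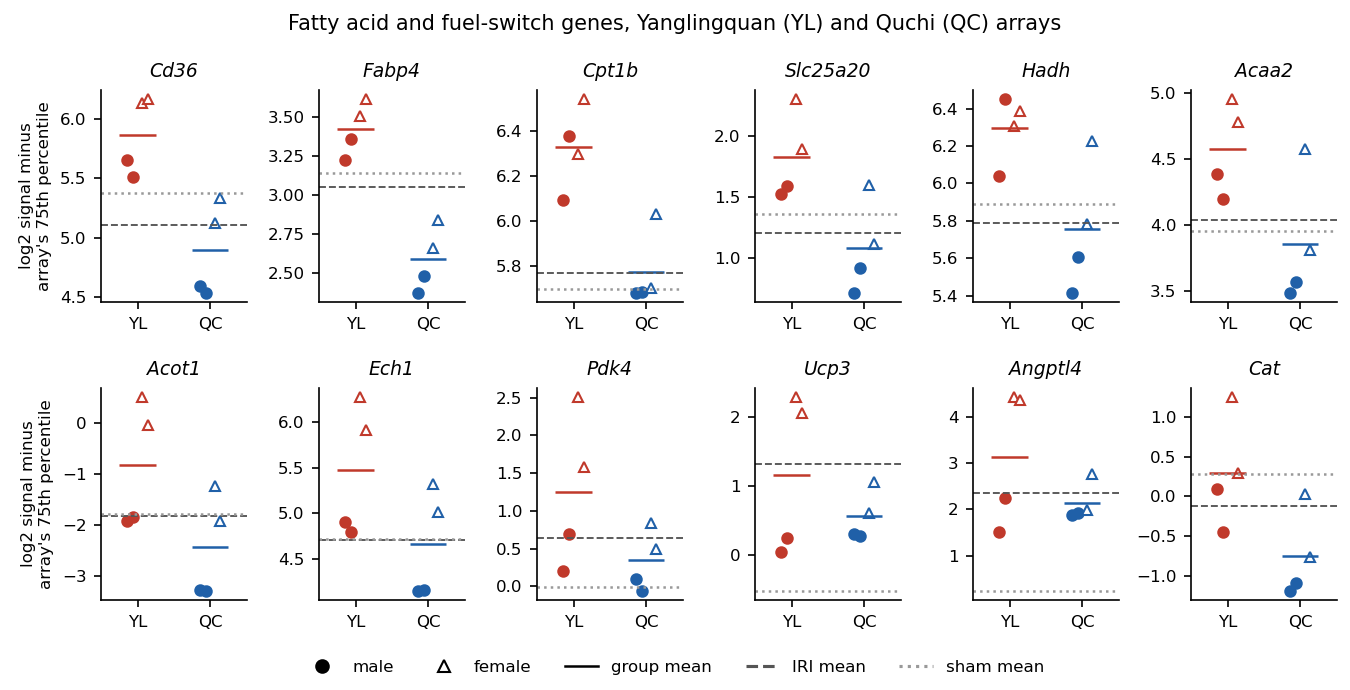
Single arrays of Yanglingquan (YL, red) and Quchi (QC, blue) hearts for 12 genes, with filled circles for males, open triangles for females, bars for group means and dashed and dotted lines for the IRI and sham means, on the log2 scale relative to the 75th percentile. Cd36 and Fabp4 separate the groups completely, and Angptl4 is highest in both Yanglingquan females.

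Markers of other cells were looked at beside these genes. The summed level of 8 adipocyte markers was 3.57 to 4.11 (log2) on the Yanglingquan arrays and 2.999 to 3.45 on the Quchi arrays, without overlap. Fabp4, which the fatty acid list holds too, was by itself at 3.23 to 3.62 and 2.37 to 2.84, and so made up much of these sums. It was the only one of the list called higher, and Lep and Ucp1 were called lower. The list's median difference was -0.31 (-0.11 after quantile normalization), and 3 of 8 differences were above 0. Adipoq, Lep and Ucp1, which define fat cells, were well above background on 0 of 4 Yanglingquan arrays. Summed cardiomyocyte markers were 10.9 to 11.3 in Yanglingquan and 10.5 to 11.1 in Quchi, and the part of these markers in the result was not tested. In tissue RNA, fewer cells of a type and less RNA per cell cannot be told apart. Of 15 cardiomyocyte markers, 2 were called higher and 0 lower, Myl3 (0.46 ± 0.13, adjusted p = 0.0168) and Des (0.31 ± 0.10, adjusted p = 0.0424). Des lost its call without any 1 array other than Quchi 2 (adjusted p from 0.0659 to 0.103), and Myl3 without Yanglingquan 2 (0.0607) or Quchi 3 (0.0615). Neither was called after quantile normalization, where the list's median went from 0.31 to 0.02.

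Of 15 genes of wall stress and the fetal programme, 4 were called lower in Yanglingquan hearts and 0 higher, beside 11.9% and 4.18% of all genes, and 11 did not pass. The list's median was -0.34 (5 lower and -0.42 after quantile normalization), and 4 or 5 were called lower when any 1 array was left out. Of the 4, only Tnfrsf12a was well above background on all 4 Yanglingquan arrays. Tnfrsf12a, the receptor for the injury cytokine TWEAK, was at 1.26, 1.72, 1.92 and 1.57 (Yanglingquan) and 2.57, 2.70, 2.79 and 2.05 (Quchi). The groups did not overlap and the difference was -0.91 ± 0.21 (SE; adjusted p = 0.00644). Quchi hearts exceeded IRI hearts by 0.86 (adjusted p = 0.0284), and Yanglingquan hearts differed from them by -0.05 (adjusted p = 0.913). Ankrd2, a stretch-responsive ankyrin repeat protein of muscle, was at -5.11, -4.95, -6.50 and -5.41 on the Yanglingquan arrays and -2.56, -2.37, -4.11 and -4.18 on the Quchi arrays. Its Quchi males were the highest, 3 of 4 Yanglingquan arrays were well above background, and the difference was -2.18 ± 0.45 (SE; adjusted p = 0.00242). Mybph, a myosin-binding protein of skeletal and stressed heart muscle, was not well above background on any Yanglingquan array and was at least 2.65-fold lower there. Such a bound sets the mean of the brighter group against the faintest signal measured above background on the arrays of the dimmer group. Nrg1, the growth factor neuregulin, was called lower with 1 of 4 Yanglingquan and 4 of 4 Quchi arrays well above background, so that no size is given, and it was not called under normexp (adjusted p = 0.0819).

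The natriuretic peptides did not pass. Nppa was at 2.96, 3.84, 2.59 and 3.65 in Yanglingquan hearts and at 5.57, 5.76, 2.65 and 3.11 in Quchi hearts. Both Quchi males lay above the 6 other arrays, and the difference of -1.02 ± 0.63 had an adjusted p of 0.296. Nppb (-0.34 ± 0.24), the stretch-induced Ankrd1 (-0.23 ± 0.24) and Csrp3, a Z-disc protein (-0.21 ± 0.15), did not pass, with adjusted p from 0.359 to 0.551. Csrp3 did pass after quantile normalization (-0.37, adjusted p = 0.0402). The myosin heavy chains Myh6 (7.74 ± 0.41 in Yanglingquan and 7.41 ± 0.33 in Quchi hearts (SD)) and Myh7 (7.34 ± 0.16 in Yanglingquan and 7.03 ± 0.23 in Quchi hearts (SD)) did not pass, and Myh6 turned to -0.04 after quantile normalization.

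Of 16 Schwann cell and neuronal markers tested, 5 were called lower and 1 higher, beside 11.9% and 4.18% of all genes, and 10 did not pass. The list's median was -0.38; after quantile normalization it was 3 and 1, with a median of -0.32. The lower count was 3 without Yanglingquan 2 or 3, or without Quchi 2, 3 or 4. S100b, a calcium-binding protein of glia, was at -4.22, -4.33, -4.76 and -4.39 (Yanglingquan) and -3.65, -2.58, -2.68 and -2.04 (Quchi). The difference was -1.69 ± 0.29 (SE; adjusted p = 0.000649). Sox10, a transcription factor of Schwann cells, was at 1.26, 1.34, 1.14 and 1.73 on the Yanglingquan arrays and 1.93, 2.71, 2.42 and 3.17 on the Quchi arrays. Its difference was -1.19 ± 0.25 (SE; adjusted p = 0.00285), and here it was Quchi that differed from IRI (1.05, adjusted p = 0.0218) and not Yanglingquan (-0.14, adjusted p = 0.765). S100b, in contrast, was lower in Yanglingquan than in IRI hearts, with a difference of -1.74 (adjusted p = 0.000686).

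Th, the rate-limiting enzyme of noradrenaline synthesis, went the other way, at 1.02, 1.02, 0.50 and 0.57 in Yanglingquan hearts and at -0.30, -0.04, -0.30 and 0.36 in Quchi hearts. All Yanglingquan values lay above all Quchi values, with a difference of 0.85 ± 0.17 (SE; adjusted p = 0.00185). Slc6a2, the noradrenaline transporter of the same nerve endings, was lower (-0.33 ± 0.11, adjusted p = 0.0478), as was Chat, the enzyme of acetylcholine synthesis (-0.74 ± 0.24, adjusted p = 0.0373), named after its values were seen. Slc6a2 was not called after quantile normalization (adjusted p = 0.0566) or without Yanglingquan 2 or 3, or Quchi 2, 3 or 4 (adjusted p from 0.066 to 0.159). Dbh (-0.50 ± 0.24), which makes noradrenaline from dopamine, did not pass. The summed level of the 16 markers was 3.11 to 3.93 in Yanglingquan and 3.64 to 4.28 in Quchi hearts, with overlap.

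Of 26 adrenergic and cholinergic genes, 4 were lower and 0 higher, where 11.9% and 4.18% of all genes were, so that the lower count is near that of all genes. It depended on the setting (2 and 0 after quantile normalization, 3 and 3 with median scaling, 2 and 1 without Quchi 2). Adrb1, the main beta receptor of heart muscle, was at -3.39, -3.65, -3.45 and -3.69 (Yanglingquan) and -2.98, -2.53, -2.97 and -2.37 (Quchi). The groups did not overlap, and the difference was -0.83 ± 0.14 (SE; adjusted p = 0.000403). Quchi lay above IRI by 0.80 (adjusted p = 0.00227), whereas Yanglingquan differed from IRI by -0.04. Grk2, the kinase that desensitises beta receptors, was at -0.71, -0.69, -0.41 and -0.18 on the Yanglingquan arrays and -0.22, 0.34, 0.33 and 0.39 on the Quchi arrays. It differed by -0.70 ± 0.14 (SE; adjusted p = 0.00165). Chrm1, a muscarinic receptor, was not well above background on any Yanglingquan array and at least 1.21-fold lower; it was not called after quantile normalization (adjusted p = 0.384) or without Yanglingquan 2 (0.0666) or Quchi 2 (0.0857). Adra1d was -0.67 ± 0.36 and did not pass (adjusted p = 0.220). Among neurotrophins and their receptors 2 of 13 were lower and 0 higher, Ntrk2 and Ntrk3 (-0.64 ± 0.18, adjusted p = 0.0201); Ntrk3 was not called after quantile normalization (adjusted p = 0.0971) or without Yanglingquan 1 or 3, or Quchi 2 (adjusted p from 0.0558 to 0.103).

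Markers of the atria gave 0 higher and 3 lower of 10. Sln, an atrial regulator of the calcium pump, was at -4.38 ± 0.49 in Yanglingquan and -3.38 ± 0.34 in Quchi hearts (SD) (adjusted p = 0.00339), Kcnj3, a subunit of the acetylcholine-gated potassium channel, at -2.65 ± 0.17 in Yanglingquan and -1.63 ± 0.58 in Quchi hearts (SD) (adjusted p = 0.0142), and Mybphl at -5.62 ± 0.14 in Yanglingquan and -4.76 ± 0.21 in Quchi hearts (SD) (adjusted p = 0.0191) with 1 of 4 Yanglingquan arrays well above background. Myl7 (-0.43), Myl4 (0.09) and Nppa did not pass, and Mybphl was not called after quantile normalization (adjusted p = 0.239) or without Yanglingquan 1 (0.0501) or Quchi 2 (0.0650). Kcnj3 lost its call without Quchi 4 (adjusted p = 0.0541) and in a fit of the 8 arrays alone (0.0502), as did Sln in the latter (0.0541). Summed atrial markers were 6.94 to 7.20 in Yanglingquan and 6.77 to 7.59 in Quchi hearts, and their part in these differences was not tested. Clic6, of the intracellular chloride channel family, at -4.31 ± 0.67 in Yanglingquan and -4.93 ± 1.62 in Quchi hearts (SD), did not pass (adjusted p = 0.667) and was -0.07 without Quchi 1. Of 23 channel and calcium-handling genes 1 was called higher and 1 lower. The higher one was Kcnip2, a subunit of the transient outward potassium current (0.83 ± 0.24, adjusted p = 0.0206). Kcnip2 lost its call without Yanglingquan 1 or 3, or Quchi 2 or 4 (adjusted p from 0.0505 to 0.0576).

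Among 19 endothelial genes 2 were higher and 0 lower under both scalings. Tie1, a receptor of the angiopoietin pathway, was at -2.14, -2.31, -2.01 and -1.87 in Yanglingquan hearts and at -2.96, -2.92, -2.74 and -2.68 in Quchi hearts. The groups did not overlap, and the difference was 0.74 ± 0.19 (SE; adjusted p = 0.00973). Aplnr, the apelin receptor, was at -2.30, -2.46, -2.06 and -1.95 (Yanglingquan) and -3.29, -2.78, -2.95 and -2.56 (Quchi). Its difference was 0.70 ± 0.21 (SE; adjusted p = 0.0261), lost without Yanglingquan 3 or 4 and without Quchi 1 or 3 (adjusted p from 0.058 to 0.081). Against IRI, Quchi hearts were lower for both, with -0.77 for Tie1 (adjusted p = 0.0240) and -0.78 for Aplnr (adjusted p = 0.0418), and Yanglingquan hearts differed by -0.03 and -0.08. The pan-endothelial genes Pecam1 (0.27), Cdh5 (0.07) and Kdr (0.19) did not pass. The list's summed level was 5.85 to 6.09 in Yanglingquan and 5.60 to 5.83 in Quchi hearts, without overlap. Kcnj8, a potassium channel subunit of pericytes, was higher (0.49 ± 0.14, adjusted p = 0.0205), and Lmod1 of smooth muscle lower (-0.82 ± 0.20, adjusted p = 0.00812); Lmod1 was not called after quantile normalization (adjusted p = 0.172), nor Kcnj8 without Yanglingquan 4 (adjusted p = 0.069) or Quchi 2 (adjusted p = 0.057).

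Of 24 inflammatory genes 2 were called higher and 1 lower, a share near the 16.1% called among all genes. Beside Il33, Nos2, the inducible nitric oxide synthase, was higher. It was at -1.37, -1.33, -1.62 and -1.79 on the Yanglingquan arrays and -2.47, -2.36, -2.66 and -1.85 on the Quchi arrays. The difference was 0.81 ± 0.18 (SE; adjusted p = 0.00430). Cxcl12, a chemokine that retains and recruits progenitor cells, was lower (-0.63 ± 0.14, adjusted p = 0.00335), while a second probe gave 0.18 ± 0.23 and the mean of its probes lost the call (adjusted p = 0.270). Cytokines raised in injured hearts did not pass: Il6 was at -1.96 ± 1.25 in Yanglingquan and -1.50 ± 0.41 in Quchi hearts (SD), Cxcl1 at 2.69 ± 0.48 in Yanglingquan and 3.20 ± 0.45 in Quchi hearts (SD), Ccl2 at 1.92 ± 1.33 in Yanglingquan and 1.75 ± 0.45 in Quchi hearts (SD), Socs3 at -2.58 ± 0.19 in Yanglingquan and -2.56 ± 0.30 in Quchi hearts (SD) and Il10 at -3.63 ± 0.30 in Yanglingquan and -3.27 ± 0.22 in Quchi hearts (SD), with adjusted p from 0.206 to 0.944. For Ccl2 the males and females stood apart within Yanglingquan: 3.33, 2.77, 0.85 and 0.72 in Yanglingquan against 2.23, 1.64, 1.19 and 1.96 in Quchi hearts. Interferon response genes (26), lymphocyte (18), mast cell (9), epicardial (6) and fibroblast and matrix genes (21) and leukocyte adhesion molecules (12) had 0 called in either direction, and after quantile normalization 1 adhesion molecule was higher.

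Of 11 neutrophil markers 0 were higher and 2 lower. Elane, neutrophil elastase, was at -2.59, -2.24, -2.46 and -1.98 in Yanglingquan hearts and at -2.01, 0.58, 0.23 and 0.88 in Quchi hearts. Quchi 1 lay within the Yanglingquan values while the other 3 Quchi arrays were above 0, and the difference was -2.24 ± 0.46 (SE; adjusted p = 0.00288). Ngp, a neutrophil granule protein, was at least 1.35-fold lower and not well above background on any Yanglingquan array. The summed neutrophil markers overlapped, at 1.16 to 2.98 against 1.68 to 2.67. Of 17 monocyte and macrophage markers 1 was lower, Csf1r (-0.39), and of 14 red cell and platelet markers 1, Epb42, for which 0 of 4 Yanglingquan arrays were well above background and no size is given; both were named after their values were seen. Liver-made plasma proteins gave 0 higher and 3 lower of 12. Of these, Fgb was at least 2.35-fold and Apob at least 1.15-fold lower, both not well above background on any Yanglingquan array, and Apoa2 was at -5.71 ± 0.31 in Yanglingquan and -4.52 ± 0.25 in Quchi hearts (SD) with 1 of 4 measured. The call of Fgb was lost after quantile normalization (adjusted p = 0.153) and without Yanglingquan 1, Quchi 1 or Quchi 2 (adjusted p from 0.094 to 0.126).

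Among energy genes beyond fatty acids, oxidative phosphorylation gave 1 higher and 0 lower of 36, with a median of 0.13 that turned to -0.04 after quantile normalization, and the tricarboxylic acid cycle 1 higher and 0 lower of 21. These were Atp5f1a (0.34) and Ogdh (0.41), and a single gene stood out likewise among immediate early genes (Dusp5, 0.76), all named after their values were seen. Only Dusp5 of these 3 was called after quantile normalization. In glycolysis and the hypoxia response 1 was higher and 2 lower of 29. Hif1a, the oxygen-regulated transcription factor, was at -0.28, -0.91, -0.65 and -0.96 (Yanglingquan) and -2.05, -2.02, -1.26 and -1.09 (Quchi). The difference was 0.91 ± 0.25 (SE; adjusted p = 0.0179), lost without Yanglingquan 1 (adjusted p = 0.069), Quchi 1 (adjusted p = 0.055) or Quchi 2 (adjusted p = 0.079). Of its known targets Car9, a carbonic anhydrase, was lower (-0.52 ± 0.12, adjusted p = 0.00496), as was Pfkfb3, a regulator of glycolysis (-0.63 ± 0.15, adjusted p = 0.00570). The second probe of Pfkfb3 gave 0.12 ± 0.31, and its call was lost over the mean of its probes (adjusted p = 0.420).

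Among 15 chaperones the small heat shock protein Cryab (0.53 ± 0.14, adjusted p = 0.0155) and Hsp90ab1 (0.33 ± 0.09, adjusted p = 0.0230) were higher, and neither was called after quantile normalization. Cryab lost its call without Yanglingquan 2 or Quchi 3 too (adjusted p = 0.0614 and 0.0532), and Hsp90ab1 without Yanglingquan 3 or 4, or Quchi 2 or 4, and over the mean of its probes (adjusted p up to 0.237). In endoplasmic reticulum stress Creld2 was lower (-0.59 ± 0.19, adjusted p = 0.0356) and Herpud1 higher (0.73 ± 0.24, adjusted p = 0.0446), the latter resting on 1 Yanglingquan value of 4.58 since 3 spots were left out as outliers. Creld2 lost its call without Yanglingquan 1, 2 or 3, or Quchi 2, 3 or 4 (adjusted p from 0.0587 to 0.107) and with median scaling (0.0634), and Herpud1 without Yanglingquan 4 or without Quchi 1, 2 or 3 (adjusted p from 0.0508 to 0.0930). Of 25 antioxidant genes Cat was higher and the cystine importer Slc7a11 lower (-0.59 ± 0.14, adjusted p = 0.00620), and Slc7a11 was not called after quantile normalization (adjusted p = 0.0592). The median of that list was 0.24. Hmox1, haem oxygenase, did not pass at -1.15 ± 0.38 in Yanglingquan and -1.99 ± 0.48 in Quchi hearts (SD) (adjusted p = 0.0923). Duox1, an NADPH oxidase, was lower (-0.87 ± 0.17, adjusted p = 0.00158), and Nox4, well above background on 1 of 4 Yanglingquan and 2 of 4 Quchi arrays, did not pass (adjusted p = 0.184). Nox4 was called higher after quantile normalization (adjusted p = 0.00561), and no size is given. In autophagy 2 of 18 were higher, the lysosomal membrane protein Lamp2 (0.39 ± 0.12, adjusted p = 0.0281) and Map1lc3a (0.46 ± 0.15, adjusted p = 0.0376). Above 0 were 17 of the 18 differences, beside 5727 of 12894 among all genes. That base holds more faint genes, since 17 of the 18 were well above background on all 8 arrays, beside 10744 of the 12894. Lamp2 lost its call without Yanglingquan 1 or 3, or Quchi 1 or 2, and Map1lc3a without any 1 of 7 of the 8 arrays and after quantile normalization (adjusted p = 0.180).

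In the circadian clock 2 of 15 genes were higher under both scalings. Per3, a period gene, was at 0.47, 0.28, -0.33 and -0.29 on the Yanglingquan arrays and -0.62, -0.40, -0.77 and -0.43 on the Quchi arrays. The difference was 0.59 ± 0.15 (SE; adjusted p = 0.0117), and 2 further probes gave 0.18 ± 0.19 and 0.18 ± 0.33. Tef, a clock-driven transcription factor, was at 1.102, 0.81, 1.29 and 0.89 in Yanglingquan hearts and at 0.52, -0.04, 0.23 and 0.24 in Quchi hearts. The difference was 0.78 ± 0.23 (SE; adjusted p = 0.0227). Over the mean of its probes Per3 was not called (adjusted p = 0.245), nor was Tef without Yanglingquan 1 or 3, or Quchi 2 or 3 (adjusted p from 0.0508 to 0.0834). The core genes Bmal1 (-0.38 ± 0.37), Per1 (-0.14 ± 0.14), Per2 (-0.07 ± 0.22) and Nr1d1 (0.01 ± 0.37) and the output gene Dbp (0.53 ± 0.37) did not pass, with adjusted p from 0.359 to 0.987. The sources used here do not give the time of day of sampling.

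Single hormone and receptor genes were called in both directions. Klk1, tissue kallikrein, which releases kinins, was lower (-1.06 ± 0.20, adjusted p = 0.00153). The adenosine receptor Adora2a, which widens vessels, was higher (0.63 ± 0.15, adjusted p = 0.00712), and Adora1, which slows the heart, was lower (-1.06 ± 0.15, adjusted p = 7.67e-05) with 3 of 4 Yanglingquan arrays well above background. Of the opioid genes Oprm1 was lower (-0.54 ± 0.17, adjusted p = 0.0378) and not called after quantile normalization (adjusted p = 0.115) or without Yanglingquan 2 or 3, or Quchi 2, 3 or 4 (adjusted p from 0.0696 to 0.139). Pnoc was called lower with 0 Yanglingquan and 1 Quchi array well above background, so that no size is given; its call was lost without Quchi 2 (0.0558) or Quchi 4 (0.0518). P2rx7 of the ATP receptors and Lep and Ucp1 of the adipocyte list were called lower with 0 of 4 Yanglingquan arrays well above background too, and no size is given for them. After quantile normalization none of these 3 was called (adjusted p = 0.119, 0.336 and 0.448), and Lep was not called without Quchi 2 or 3 (0.0608 and 0.0567). Prcp, a protease of the kinin and angiotensin system, was at -4.02 ± 0.39 in Yanglingquan and -4.64 ± 0.42 in Quchi hearts (SD) and did not pass (adjusted p = 0.213).

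Cdc20, the activator of the anaphase-promoting complex, was at 1.24, 1.42, 0.99 and 1.39 (Yanglingquan) and 2.01, 2.18, 1.93 and 2.44 (Quchi). The groups did not overlap, and the difference was -0.88 ± 0.16 (SE; adjusted p = 0.000794). Yanglingquan hearts differed from IRI by -1.26 (adjusted p = 2.65e-05) and Quchi hearts by -0.38 (adjusted p = 0.184). It was 1 of 2 lower and 0 higher among 23 cell cycle genes. The other, Hmga2, was at least 1.19-fold lower, not well above background on any Yanglingquan array and not called after quantile normalization (adjusted p = 0.0535). Of 20 matrix proteases and their partners 1 was higher and 3 lower, near the shares among all genes (4.18% and 11.9%). Adamts9 was lower (-1.03 ± 0.23, adjusted p = 0.00411), as were Mmp11 (-0.50 ± 0.14, adjusted p = 0.0175) and Mmp13, which was at least 1.42-fold lower and not well above background on any Yanglingquan array, and Adamts4 was higher (0.65 ± 0.20, adjusted p = 0.0315). Mmp11 was not called after quantile normalization (adjusted p = 0.0884) or without Yanglingquan 3, Quchi 2 or Quchi 4 (adjusted p from 0.0521 to 0.0821). Adamts4 lost its call without Yanglingquan 1 or 3, or Quchi 2 or 4 (adjusted p from 0.0716 to 0.0994) and in a fit of the 8 arrays alone (0.0529). Timp1 (-0.35 ± 0.22), an inhibitor of such proteases, did not pass. Early response genes Atf3 (-0.07 ± 0.38, with 1 Yanglingquan value left out as an outlier spot), Fos (-0.21 ± 0.39) and Egr1 (0.64 ± 0.51) and the glucose sensor Txnip (0.33 ± 0.23) did not pass either, with adjusted p from 0.350 to 0.932.

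Over the 40 lists, 83 of 708 genes tested were called (11.7%), 39 higher and 44 lower, a smaller share than the 16.1% among all genes. The count fell to 51 without Quchi 2 (20 higher, 31 lower). The lists were chosen with earlier results of these data known, and their counts are descriptions.

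**Figure D4:**
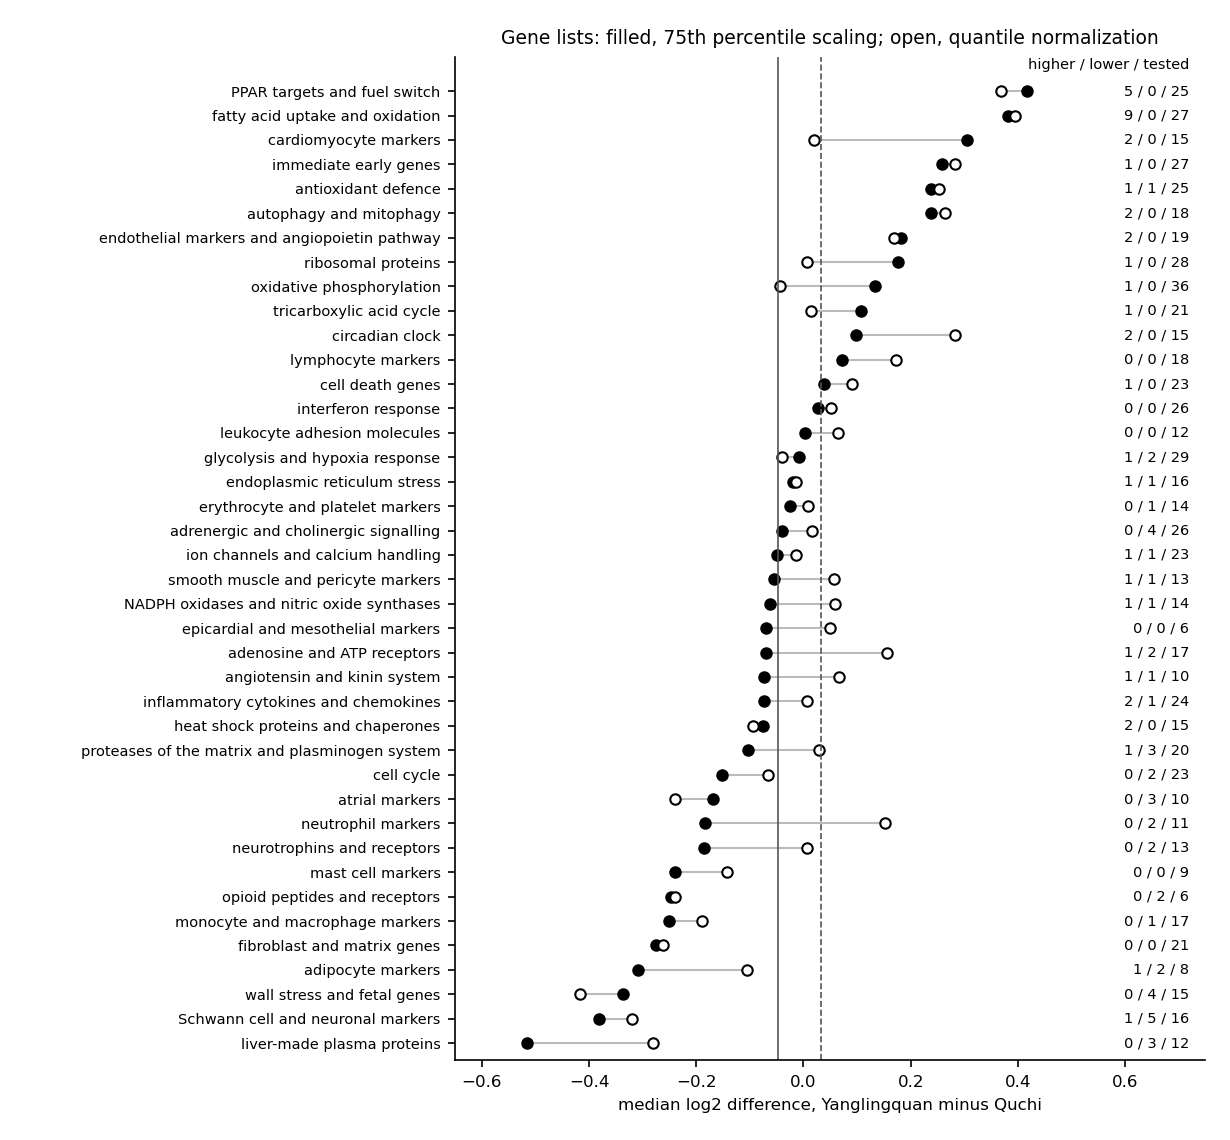
Median log2 difference (Yanglingquan minus Quchi) of the tested genes of each list, filled with 75th percentile scaling and open after quantile normalization, with the number called higher, called lower and tested at the right and vertical lines at the medians of all genes (-0.05 and 0.03). Fatty acid genes and PPAR targets lie at the top at 0.38 and 0.42, and wall stress genes, nerve markers and plasma proteins at the bottom at -0.34, -0.38 and -0.52.

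Some genes were well above background on all arrays of 1 acupoint group and on 0 of the other. The olfactory receptor gene Or14j5c was well above background on 4 of 4 Yanglingquan and 0 of 4 Quchi arrays and was at least 2.19-fold higher in Yanglingquan; without the other 4 groups in the fit it lost its call (adjusted p = 0.061). In the other direction Or13c7c was at least 5.01-fold and Or5p56 at least 4.26-fold lower in Yanglingquan hearts, and both are olfactory receptor genes as well. Twist2, a transcription factor of mesenchymal cells, was at least 3.65-fold lower, Prss40, a testis protease, at least 3.64-fold, and Chst5, a sulfotransferase, at least 2.89-fold. These lower genes were not particular to Quchi. In each, Yanglingquan lay below the ranges of the IRI, sham, Jiaji and Neiguan arrays. Quchi was not called against IRI in any of them (limma adjusted p from 0.349 to 0.879). Olfactory receptor genes form a large family of like sequence, so that these probes may not tell members apart.

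Seen beside the untreated injured hearts, 1563 genes (12.1%) were called between Yanglingquan and IRI and 444 (3.44%) between Quchi and IRI. These 2 comparisons share the IRI arrays and were made with 75th percentile scaling only. Of probes, 84.8% were well above background on the IRI arrays, beside 73.5% on the Yanglingquan arrays and 81.2% on the Quchi arrays. The part of this share in the 2 counts was not tested. Of the 2075 genes called between the acupoints, 229 had all 4 Yanglingquan arrays outside the other 20 arrays of the series, 28 above and 201 below. The Quchi arrays were outside the other 20 in 46 genes, 22 above and 24 below. After quantile normalization these counts were 118 (21 above, 97 below) for Yanglingquan and 70 (18 above, 52 below) for Quchi. With median scaling they were 254 (110 above, 144 below) and 54 (16 above, 38 below), so that the balance for Yanglingquan depended on the scaling.

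The sexes differed in the acupoint contrast for few genes. The interaction, the contrast in females minus that in males, was called for 13 of 12887 genes (0.101%), while 1537 (11.9%) had an unadjusted p under 0.05. In all 13 the Quchi males were above the Yanglingquan males, and in 11 of them both Quchi males lay above the 22 other arrays of the series. Ankrd23, a stretch-responsive ankyrin repeat protein, was at -3.44, -3.11, -1.41 and -1.76 on the Yanglingquan arrays and -1.63, -1.49, -2.95 and -2.33 on the Quchi arrays. In males the difference was -1.72 and in females 1.06, an interaction of 2.78 ± 0.35 (adjusted p = 0.0117), called whichever array was left out. Ccn2, a matrix growth factor of scarring (connective tissue growth factor), was at 1.72, 2.34, 4.06 and 3.43 in Yanglingquan hearts and at 3.76, 3.92, 3.22 and 2.75 in Quchi hearts. The male difference was -1.81, the female 0.75 and the interaction 2.56 ± 0.35 (adjusted p = 0.0121). Scn3b, a sodium channel subunit, was at -0.76, -0.19, 0.09 and 0.41 (Yanglingquan) and 1.85, 2.05, -0.09 and -0.14 (Quchi). Its interaction was 2.79 ± 0.40 (adjusted p = 0.0121), that of Spmip2 1.995 ± 0.284 (adjusted p = 0.0121) and that of Glra2, a glycine receptor subunit, 2.46 ± 0.39 (adjusted p = 0.0231).

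The other 8, listed since they complete the 13, were Tmem47, Rassf2, Tceal7, Cx3cr1, Cym, Extl3, Ptprn2 and Nup210l. Glra2 and the first 7 of them varied together over the 8 arrays, with pairwise correlations from 0.946 to 0.999. Over all 24 arrays these ranged from 0.786 to 0.998. The genes were grouped after their values were seen. The interaction had chosen them for a shared pattern on the 8 arrays, which are among the 24. High correlations were therefore built in and are no separate evidence of likeness. The count rested on single arrays, being 2 without Quchi 4, 5 without Quchi 1, 7 without Quchi 3, 24 without Yanglingquan 4, 30 without Yanglingquan 2 and 84 without Quchi 2. With 2 rats of each sex per group, each sex mean rests on a pair of arrays, and in males 1 of the Quchi pair is the separately scanned Quchi 1.

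**Figure D5:**
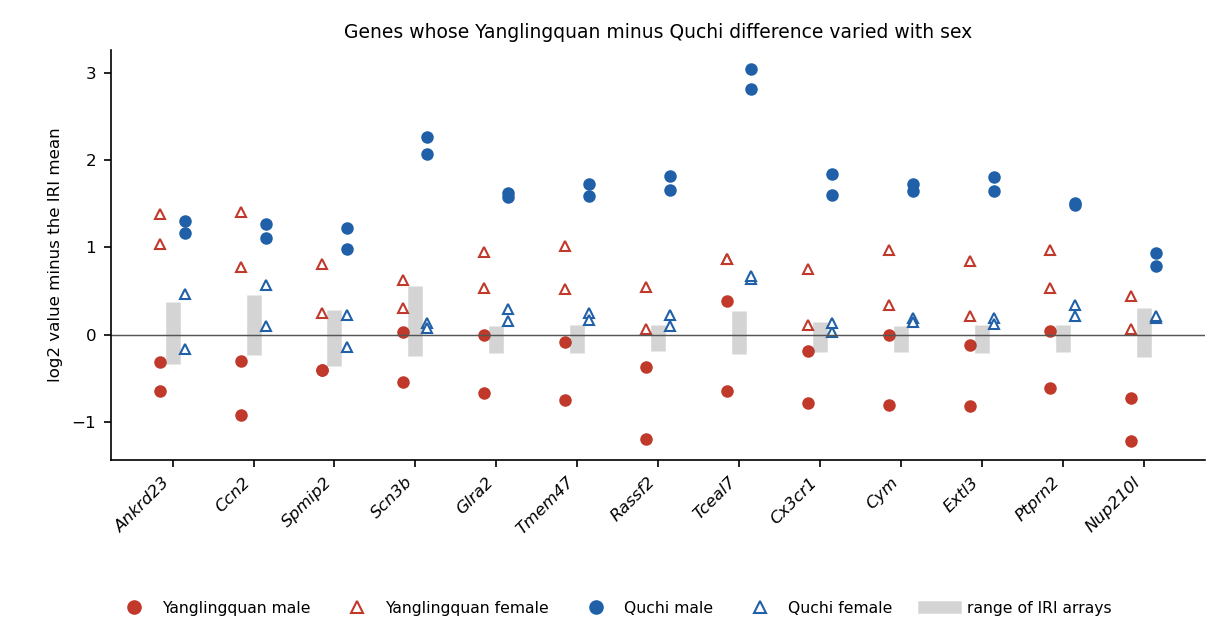
Log2 values minus the mean of the IRI arrays for the 13 genes called in the interaction, with circles for males, open triangles for females, red for Yanglingquan, blue for Quchi, and grey bars for the range of the IRI arrays. Both Quchi males are above both Yanglingquan males in each gene, whereas the females of the groups lie closer together.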

How the data were processed

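Each heart was hybridised to a 1-colour Agilent array, and the deposited scanner files hold spot intensity values, per the file headers with background subtraction and detrending by Feature Extraction 11.0.1.1 (10.7.3.1 per the submitters' processing notes). The deposited files also hold flags for background, saturation and outlier spots. The authors' processed values are a log2 table with equal quartiles in every column and were used as an alternative, their tool not being given in the sources used here. Control spots (1377 per array) and, over all arrays, 8733 outlier spots were dropped; 0 were saturated. Repeat spots were averaged by probe, and log2 processed signals were centred on the 75th percentile of each array. Of 30367 probes, 18005 (59.3%) were named through accessions in a RefSeq table for the GRCr8 build, representing 15168 genes. The filter asked that every array in 1 or more groups show the probe well above background, which left 12894 genes with 1 probe each.

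The fit used limma 3.58.1 in R 4.3.3 with group and sex over 24 arrays (17 residual degrees of freedom for a gene with all values), and Benjamini-Hochberg adjustment over all genes. The script was tested on simulated data. Normexp correction used the median signals, since mean signals are not used here. Alternatives were quantile and median scaling, normexp, the authors' values, other filters, the 8 arrays alone and no sex term. Replicate, scan day and slide blocks, other probe rules and leaving out each array were used as well. The scan day block set apart only the later day of Quchi 1, so it gave the same results as leaving Quchi 1 out. Both count among the 21 alternatives. The genes described are the 15 leading in each direction and up to 5 per direction measured in only 1 of the 2 acupoint groups. To these were added up to 4 called per list with 2 or more calls, a panel, and up to 5 of the interaction. Some genes that these rules name are not reported here, though counts over lists and over all genes hold them. The comparison, lists and panel were chosen with earlier results of these data known.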

Additional observations from a re-analysis of the deposited data

Results flagged for a closer look

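In 12 of 268 groups of 4 arrays examined among the genes described, 1 array stood far from the other 3, where chance gives about 1 in 20. Quchi 1 was the outlying array in 5 of them. It was low in Grk2 (-0.22), Chrm1 (-6.01), Pnoc (-7.77) and Il10 (-3.59) and high in Hmga2 (-4.61). Quchi 4 was high in Hmx1 (0.22), Cpt1b (6.03) and Angptl4 (2.77). Yanglingquan 3 was high in Bik (-3.00), Arhgap29 (-1.44) and Wnt3 (1.97), and Yanglingquan 4 in Myh7 (7.57).

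The acupoint contrast differed between the sexes, by the test of the interaction itself, in 13 genes. The values, females minus males on the log2 scale, were 2.78 for Ankrd23, 2.56 for Ccn2, 1.995 for Spmip2, 2.79 for Scn3b and 2.46 for Glra2. For Tmem47 it was 2.64, for Rassf2 2.67, for Tceal7 3.28 and for Cx3cr1 2.56. For Cym it was 2.59, for Extl3 2.57, for Ptprn2 2.26 and for Nup210l 1.89. Adjusted p ranged from 0.0117 to 0.0499 in limma.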

How the results depend on the processing

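The count of 2075 genes was 1260 (464 higher, 796 lower) with probes well above background on all 24 arrays, 1114 (195, 919) with the 8 arrays alone, 3357 (1050, 2307) with the slide scan as a random block and 4908 (1142, 3766) over every probe. It ranged from 1113 without Quchi 2 to 2102 without Quchi 1. In the random block fit the estimated correlation within a scan was -0.0998. Each scan held arrays of 1 group only, so that fit cannot set scan apart from acupoint. Normexp gave 845 higher and 829 lower, the authors' values 790 and 855. The replicate block gave 656 (74, 582) and 38 list genes. Replicate numbers share only a number: their deviations correlated by 0.0396 to 0.372, and 4 of 8 arrays correlated best with their own number. The 83 list genes became 55 with the 8 arrays alone, 134 with the random block and 55 with quantile scaling without Quchi 1, and ranged from 51 to 79 with 1 array left out. The 13 interaction genes were 32 under normexp and 2 to 84 with 1 array left out. The 229 genes with Yanglingquan outside the other arrays were 118 after quantile normalization, 117 under normexp and 111 with the authors' values. The detection share difference ranged from -9.64 (without Quchi 1) to -6.30. The cause of these changes was not tested, beyond fewer or more features and arrays where the setting itself brings them.

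Of the 99 called genes described, 43 kept their call in all 21 alternatives. These values turned sign: Rdh16 over the mean of its probes (-0.066), Ucp1 with the authors' values (0.11), and Socs3 under quantile (0.041), median (0.10) and normexp (0.0063) settings and the authors' values (0.027). Atf3 turned with median scaling (0.029) and the authors' values (0.046), and Per1 under quantile (0.025), normexp (0.048), the authors' values (0.015) and quantile scaling without Quchi 1 (0.0094). Per2 turned with median scaling (0.059), and Ankrd23 with quantile scaling without Quchi 1 (0.015). Nr1d1 (-0.034) and Clic6 (-0.069) turned with scan day as a block, which gave the same values as leaving out Quchi 1. Myh6 turned under quantile (-0.040), normexp (-0.025) and the authors' values (-0.039). With 1 array left out, Ccl2 ranged from -0.23 to 0.48, Socs3 from -0.19 to 0.12, Atf3 from -0.35 to 0.24, Fos from -0.46 to 0.17, Nr1d1 from -0.24 to 0.33 and Clic6 from -0.069 to 1.21. Of these, Rdh16 and Ucp1 were called. Faint probes are the least certain, since 73.5% of probes were well above background on the Yanglingquan arrays.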
